A study of Homo sapiens with 6 samples.

Results

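The 30 genes described here encode the machinery of cholesterol and fatty acid synthesis that is under control of the sterol regulatory element binding proteins (SREBPs), and were taken from the 16655 genes of the expression table by their symbols. They fall into 4 regulators of the pathway, 7 enzymes of the mevalonate steps, 11 enzymes that lead from farnesyl diphosphate through squalene to cholesterol, the sterol carrier STARD4 and 7 genes of fatty acid synthesis. The mevalonate genes, the squalene to cholesterol genes and STARD4 together form the sterol branch of 19 genes. The list is not the complete set of SREBP targets. All 30 genes were found in the table and all 30 passed the filter on low counts.

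The libraries came from HEK-293T, an established line derived from human embryonic kidney and expressing a viral large T antigen. Cells of the control group were transfected with Lipofectamine and the pEGFP-C1 vector, which expresses green fluorescent protein (GFP) alone, and are labelled as control genotype (n = 3). Cells of the other group received the same vector with the coding sequence of reflectin A1 (RfA1), a reflectin of squid skin cells, fused to GFP and with codons optimized for human cells (n = 3). Both groups were harvested 24 h after transfection, so that lipofection, the vector and GFP were shared by all 6 libraries, and expression was transient. Each library is from a dish of transfected cells, in which the share of cells that took up the plasmid is not given in the labels, and a smaller share of responding cells cannot be told apart from a smaller response per cell. Replicates are numbered 1 to 3 in each group, and nothing in the labels says that they were independent cultures, so the p-values measure the spread between these libraries.

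SREBPs are transcription factors that are made as precursors in the membrane of the endoplasmic reticulum. When sterols are scarce, SCAP escorts the precursor to the Golgi, where proteases release the part that enters the nucleus and binds the promoters of target genes. When sterols are abundant, INSIG proteins hold SCAP and its SREBP in the endoplasmic reticulum. The product of SREBF2 is known mainly for sterol genes and the product of SREBF1 mainly for fatty acid genes, and SREBPs act at many of these promoters together with the factors NF-Y and Sp1.

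Promoters of the 2 members with the highest and the 2 with the lowest log2 fold change between RfA1 and GFP cells are shown first. The letters that NF-Y binds stand in all 4 of the stretches printed. Each is the 250 bases before a start site in RefSeq (GRCh38.p14), printed 5′ to 3′ on the strand of the gene. Capitals mark CCAAT or its reverse complement ATTGG, the NF-Y box, and TCACNCC or its reverse complement GGNGTGA, which are letters of the sterol regulatory element. MSMO1 is at chr4:165327419-165327668 on the plus strand, HMGCS1 at chr5:43313413-43313662 on the minus strand, TM7SF2 at chr11:65111622-65111871 on the plus strand and MVD at chr16:88663092-88663341 on the minus strand.
MSMO1: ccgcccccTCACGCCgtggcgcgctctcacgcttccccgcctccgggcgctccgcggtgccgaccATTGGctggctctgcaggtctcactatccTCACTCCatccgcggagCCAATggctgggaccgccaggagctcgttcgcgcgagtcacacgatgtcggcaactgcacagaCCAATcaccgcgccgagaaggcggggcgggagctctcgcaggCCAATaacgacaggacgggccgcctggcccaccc
HMGCS1: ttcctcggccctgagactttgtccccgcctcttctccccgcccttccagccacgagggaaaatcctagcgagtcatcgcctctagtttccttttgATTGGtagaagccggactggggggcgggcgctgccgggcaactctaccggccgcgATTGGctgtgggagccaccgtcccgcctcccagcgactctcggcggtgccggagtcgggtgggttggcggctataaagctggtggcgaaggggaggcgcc
TM7SF2: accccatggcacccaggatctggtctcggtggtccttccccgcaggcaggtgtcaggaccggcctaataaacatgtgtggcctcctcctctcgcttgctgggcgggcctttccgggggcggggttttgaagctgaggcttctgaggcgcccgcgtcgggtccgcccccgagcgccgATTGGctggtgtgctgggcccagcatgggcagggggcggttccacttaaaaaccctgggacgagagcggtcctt
MVD: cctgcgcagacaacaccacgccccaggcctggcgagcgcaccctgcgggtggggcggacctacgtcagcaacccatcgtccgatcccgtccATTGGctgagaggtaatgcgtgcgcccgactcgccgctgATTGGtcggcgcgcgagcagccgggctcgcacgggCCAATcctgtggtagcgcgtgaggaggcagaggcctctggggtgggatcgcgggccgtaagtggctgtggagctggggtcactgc

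The MSMO1 stretch held 4 NF-Y boxes and 2 sterol element letters, the HMGCS1 stretch 2 NF-Y boxes, the MVD stretch 3 and the TM7SF2 stretch 1. The genes with lower and with higher values both carried the NF-Y box. RefSeq windows from 250 bases before to 50 bases after the start were matched for 26 of the 30 members and for 10459 of the tested genes. On either strand, CCAAT stood in 20 of the 26 members (76.9%), against 43.5% of the matched genes, and in 24 of the 35 windows of members (68.6%), against 34.5% of all windows. In the sterol branch it stood in 14 of 16 matched genes and in the fatty acid branch in 4 of 6. TCACNCC stood in 7 of the 26 members (26.9%) against 20.9% of genes, and the Sp1 letters GGGCGG in 25 (96.2%) against 78.8%. HMGCS1 was among these 7, with TCACNCC at position 21 after the start site, outside its printed stretch. Another HMGCS1 window, at chr5:43313132-43313431, overlaps this one and held no NF-Y box. The same TCACNCC site lies at position -211 of that window, so it is not a separate match. Each motif was searched by itself, so hits of different motifs may share letters. These counts describe the letters in the windows, with no test.

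**Figure D1:**
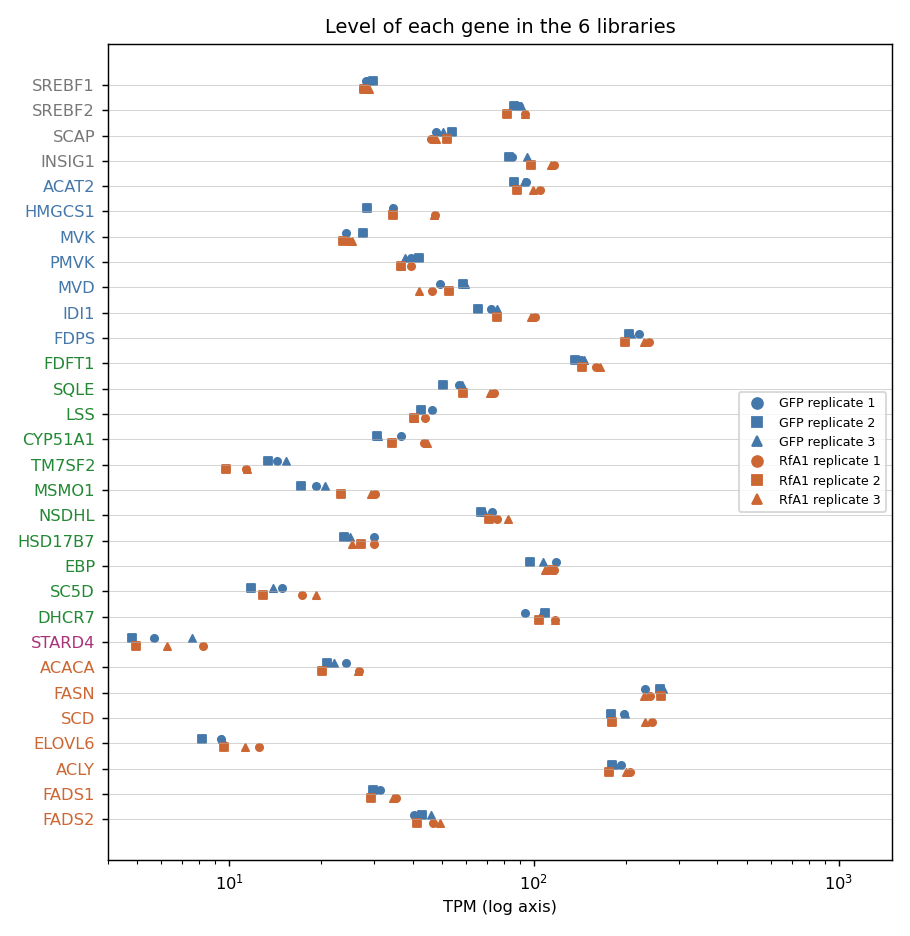
Level of each of the 30 genes in the 6 libraries in TPM (log axis), with GFP libraries in blue and RfA1 libraries in orange, and with symbols for the replicate number. Gene names are coloured by role, in order regulators, mevalonate steps, squalene to cholesterol steps, sterol transport and fatty acid branch, and levels ran from about those of STARD4 (6.01 TPM in GFP cells) to those of FASN (252 TPM).

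The 30 genes spanned a wide range of levels in GFP cells. TPM, the length-scaled unit of the authors, allows levels of different genes to be set side by side (mean ± SD, n = 3). Of the regulators, SREBF2 (88.6 ± 2.17 TPM) and INSIG1 (87.4 ± 6.4 TPM) had higher levels than SCAP (50.6 ± 2.96 TPM) and SREBF1 (28.8 ± 0.75 TPM). SREBF2 and INSIG1 differed by less than the SD of INSIG1. The highest levels of all members were those of FASN, the fatty acid synthase, at 252 ± 17.7 TPM, of FDPS, which makes farnesyl diphosphate, at 212 ± 7.98 TPM, of SCD, which puts the first double bond into fatty acids, at 192 ± 11.1 TPM, and of ACLY, which supplies acetyl-CoA from citrate, at 185 ± 6.79 TPM. The difference between SCD and ACLY was smaller than the SD of SCD. FASN, SCD and ACLY held between 27.96% and 29.6% of the summed TPM of the 30 genes in each library. The lowest levels were those of STARD4 (6.01 ± 1.41 TPM), the fatty acid elongase ELOVL6 (9.03 ± 0.737 TPM), the sterol desaturase SC5D (13.6 ± 1.62 TPM) and the sterol reductase TM7SF2 (14.4 ± 1.02 TPM). SC5D and TM7SF2 did not differ beyond their SD.

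The summed TPM of the 30 genes was 2163, 2089 and 2196 for GFP replicates 1 to 3 and 2426, 2133 and 2364 for RfA1 replicates 1 to 3. RfA1 replicates 1 and 3 were above all GFP libraries and RfA1 replicate 2 was among them. The sterol branch summed to 1160 ± 37.1 TPM in GFP cells and 1261 ± 93.4 TPM in RfA1 cells. The fatty acid branch summed to 734.0 ± 18.2 TPM and 771.5 ± 47.7 TPM. On the log2(TPM + 1) scale the median of all tested genes was itself 0.045 higher in RfA1 cells, so that TPM gives slightly higher differences than the normalized counts used below.

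Depth was 10272304 to 11566287 estimated counts per library, and members had between 113 (TM7SF2) and 18103 (FASN) counts in a library. Chi-square divided by its degrees of freedom, which is about 1 for libraries that differ by counting error alone, was 1.92 between RfA1 replicates 1 and 3, but 11.4 and 14.0 between these and RfA1 replicate 2. It was 2.31 between GFP replicates 2 and 3, and 7.94 and 5.63 between these and GFP replicate 1. RfA1 replicate 2 stood farthest from its group, and results are given below with and without it. The HEK-293T markers PAX2, LHX1, EYA1, NEFL, NEFM and INA were detected in all libraries, at 1.33 to 66.23 TPM. Of the markers of cells with high lipid synthesis or of blood, ALB, APOA2, FGB, ADIPOQ, PTPRC, CD74 and LAPTM5 were at 0.62 TPM or less in each library, and PLIN1 was at 1.45 to 2.43 TPM.

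The comparison of RfA1 with GFP cells asks whether expression of RfA1 changed the transcripts of the pathway. Of the 30 genes, 0 reached the threshold, an adjusted p under 0.05 by edgeR's quasi-likelihood test (Benjamini-Hochberg, 13002 genes). The background was low too, since 10 of all tested genes passed (0.0769%). DESeq2 and limma-trend also called 0 members, against 33 and 4 of all tested genes (0.254% and 0.0308%). At an unadjusted p under 0.05, 7 members were higher in RfA1 cells, which is 23.3% of them against 7.3% of all tested genes. They were INSIG1, HMGCS1, IDI1, SQLE, CYP51A1, MSMO1 and ELOVL6. On the same terms MVD and TM7SF2 were lower, which is 6.67% of the members against 6.64% of all genes. The libraries of the groups did not overlap for 6 members with higher values (20% against 9.86% of all genes) and for 4 members with lower values (13.3% against 8.01%). The log2 fold change was positive for 21 of 30 members (70%) and for 49.5% of all tested genes, and its median was 0.043 over the members and -0.0024 over all tested genes. In the text that follows, levels are CPM, the counts scaled to TMM-normalized library sizes, and fold changes are RfA1 against GFP on the log2 scale.

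**Figure D2:**
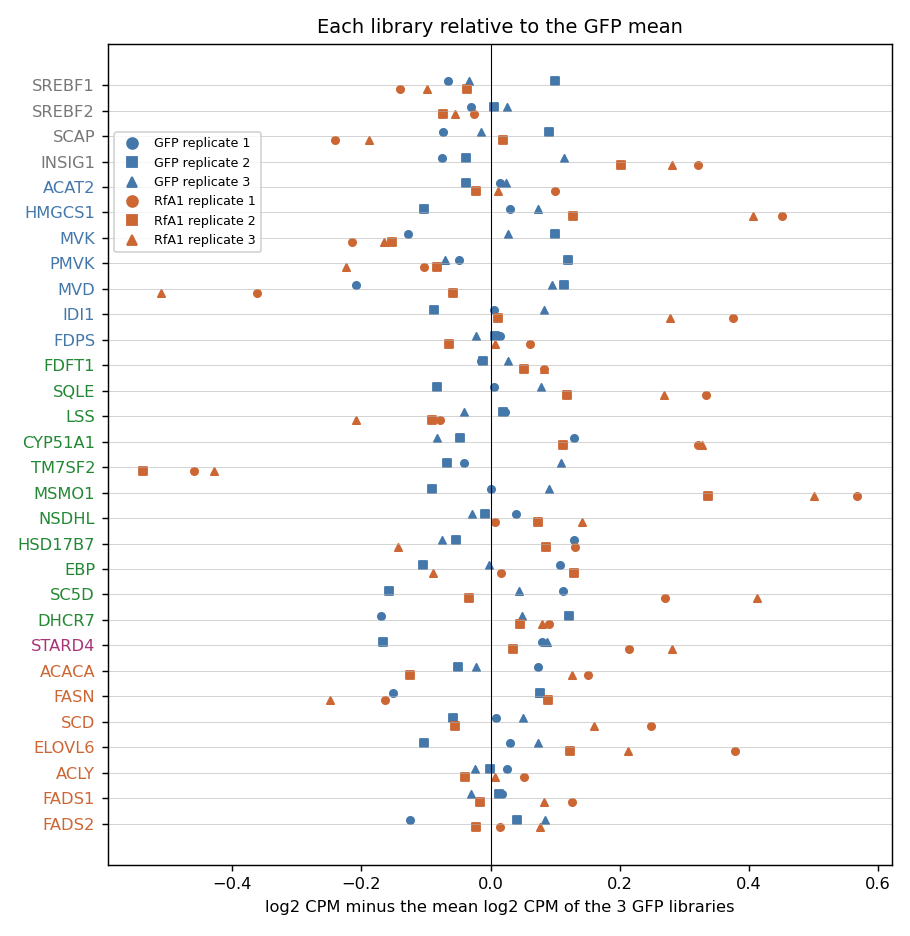
Each library's log2 CPM minus the mean log2 CPM of the 3 GFP libraries, for each of the 30 genes (GFP libraries in blue, RfA1 libraries in orange, symbols for the replicate number). The largest separations were those of MSMO1 to the right and TM7SF2 to the left, and the square of RfA1 replicate 2 lay nearest to the GFP mean among the RfA1 libraries for 21 genes.

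Among the regulators, INSIG1 had the largest log2 fold change. INSIG1, which retains SCAP and is itself an SREBP target, was at 162, 166 and 184 CPM in GFP cells and at 213, 196 and 207 CPM in RfA1 cells. The lowest RfA1 library exceeded the highest GFP library, and the log2 fold change was 0.27 ± 0.082 (SE, edgeR adjusted p = 0.254). SREBF1 was at 83.8, 94.1 and 85.8 CPM in GFP cells and at 79.6, 85.6 and 82.0 CPM in RfA1 cells. The groups overlapped, with a log2 fold change of -0.093 ± 0.081 (SE, edgeR adjusted p = 0.601). SREBF2 was at 309, 316 and 321 CPM in GFP cells and at 310, 300 and 303 CPM in RfA1 cells. It overlapped as well, with a log2 fold change of -0.052 ± 0.072 (SE, edgeR adjusted p = 0.749). SCAP, the escort of the precursors, was at 131, 147 and 137 CPM in GFP cells and at 117, 140 and 121 CPM in RfA1 cells, where replicate 2 lay among the GFP libraries. Its log2 fold change was -0.13 ± 0.091 (SE, edgeR adjusted p = 0.5). The values of SREBF1, SREBF2 and SCAP turned positive after a correction for GC content described below (0.084, 0.048 and 0.014), when all 4 regulators had positive values.

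In the mevalonate steps, which lead from acetyl-CoA to farnesyl diphosphate, 4 of 7 genes had positive and 3 negative values, with a median of 0.0023. HMGCS1, which condenses acetyl-CoA and acetoacetyl-CoA, was at 110, 100.2 and 113 CPM in GFP cells and at 147, 118 and 143 CPM in RfA1 cells. The groups did not overlap, and replicate 2 was the lowest of the RfA1 libraries. Its log2 fold change was 0.33 ± 0.098 (SE, edgeR adjusted p = 0.25). MVD, which decarboxylates mevalonate diphosphate, was at 55.7, 69.6 and 68.7 CPM in GFP cells and at 50.1, 61.8 and 45.2 CPM in RfA1 cells. GFP replicate 1 and RfA1 replicate 2 crossed over, and the log2 fold change was -0.31 ± 0.13 (SE, edgeR adjusted p = 0.324). MVD also had the largest coefficients of variation of all members, 12.1% in GFP and 16.3% in RfA1 cells, against medians of 6.28% and 6.40%. IDI1, which isomerizes isopentenyl diphosphate in the next step, was at 109, 102 and 115 CPM in GFP cells and at 140, 109 and 131 CPM in RfA1 cells. The groups overlapped through RfA1 replicate 2, with a log2 fold change of 0.23 ± 0.10 (SE, edgeR adjusted p = 0.349). MVD and IDI1, consecutive enzymes of the route, thus had values of opposite sign, but their transcripts differ in GC content (65.6% and 41.1%). After the GC correction described below, MVD had -0.13 ± 0.064 (SE, edgeR adjusted p = 0.330). IDI1 then had 0.12 ± 0.064 (SE, edgeR adjusted p = 0.350).

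The other mevalonate genes had smaller values. ACAT2, a thiolase that makes acetoacetyl-CoA, had 91.1 ± 4.29 TPM in GFP and 97.2 ± 8.56 TPM in RfA1 cells (log2 fold change 0.031). MVK, which phosphorylates mevalonate, had 26.3 ± 1.82 and 24.5 ± 0.823 TPM (log2 fold change -0.18). PMVK, which adds the next phosphate, had 39.8 ± 2.09 and 37.6 ± 1.67 TPM (log2 fold change -0.14). For MVK and PMVK the CPM of all RfA1 libraries lay below those of all GFP libraries. FDPS had 212 ± 7.98 and 222 ± 20.8 TPM, with a log2 fold change of 0.0023 in normalized counts.

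In the squalene to cholesterol steps, 9 of 11 genes had positive and 2 negative values, with a median of 0.072. MSMO1, an oxidase that removes methyl groups at the sterol ring, had the highest log2 fold change of all 30 genes. It was at 26.8, 25.2 and 28.5 CPM in GFP cells and at 39.7, 33.8 and 37.9 CPM in RfA1 cells. Every RfA1 library lay above every GFP library, and the log2 fold change was 0.47 ± 0.0997 (SE, edgeR adjusted p = 0.167). TM7SF2, a reductase that acts on the sterol after CYP51A1, had the lowest. It was at 15.2, 14.9 and 16.9 CPM in GFP cells and at 11.4, 10.8 and 11.6 CPM in RfA1 cells. Every RfA1 library lay below every GFP library, RfA1 replicate 2 included, and the log2 fold change was -0.48 ± 0.11 (SE, edgeR adjusted p = 0.179). LBR, a protein of the inner nuclear membrane that can carry out the same reduction, had a log2 fold change of 0.17 ± 0.098 (SE, edgeR adjusted p = 0.438). Its groups overlapped, and its value was 0.046 after the GC correction described below (edgeR adjusted p = 0.732). SQLE, which makes squalene epoxide, was at 109, 102 and 115 CPM in GFP cells and at 137, 118 and 131 CPM in RfA1 cells. The groups did not overlap, and the log2 fold change was 0.24 ± 0.086 (SE, edgeR adjusted p = 0.289).

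CYP51A1, which removes a methyl group from lanosterol, had 32.7 ± 3.37 TPM in GFP and 40.9 ± 5.7 TPM in RfA1 cells (log2 fold change 0.25, edgeR adjusted p = 0.294). Its groups overlapped in CPM, where RfA1 replicate 2 lay just under GFP replicate 1. SC5D, a desaturase of a late step, had 13.6 ± 1.62 and 16.6 ± 3.31 TPM (log2 fold change 0.22). LSS, which closes the rings to give lanosterol, had 43.8 ± 2.08 and 41.6 ± 2.11 TPM (log2 fold change -0.12) and did not overlap between the groups in CPM. FDFT1, the squalene synthase, had 141 ± 4.81 and 156 ± 10.8 TPM (log2 fold change 0.072), also without overlap in CPM. The remaining 4 genes overlapped between the groups. NSDHL, which works with MSMO1 in demethylation, had 69.5 ± 3.03 and 76.5 ± 5.55 TPM (log2 fold change 0.075). HSD17B7, the ketoreductase of that step, had 26.3 ± 3.25 and 27.4 ± 2.38 TPM (log2 fold change 0.027). EBP, a sterol isomerase, had 107 ± 10.7 and 113 ± 4.03 TPM (log2 fold change 0.019). DHCR7, which reduces 7-dehydrocholesterol to cholesterol, had 103 ± 8.05 and 113 ± 7.75 TPM (log2 fold change 0.067). These 4 genes had values smaller than their standard errors, which ran from 0.0796 for NSDHL to 0.11 for HSD17B7. STARD4, which carries sterols between membranes, was at 14.8, 12.4 and 14.8 CPM in GFP cells and at 16.2, 14.3 and 17.0 CPM in RfA1 cells. The groups overlapped through RfA1 replicate 2, with a log2 fold change of 0.18 ± 0.12 (SE, edgeR adjusted p = 0.506).

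In the fatty acid branch, 6 of 7 genes had positive values and FASN a negative one. ELOVL6, which elongates saturated fatty acids, was at 41.8, 38.1 and 43.1 CPM in GFP cells and at 53.2, 44.6 and 47.5 CPM in RfA1 cells. It was the only member of the branch whose groups did not overlap, with a log2 fold change of 0.24 ± 0.097 (SE, edgeR adjusted p = 0.321). SCD was at 704, 672 and 724 CPM in GFP cells and at 831, 674 and 782 CPM in RfA1 cells, where replicate 2 lay among the GFP libraries. Its log2 fold change was 0.12 ± 0.088 (SE, edgeR adjusted p = 0.521). FASN was at 1364, 1598 and 1595 CPM in GFP cells and at 1352, 1611 and 1275 CPM in RfA1 cells. GFP replicate 1 lay with RfA1 replicates 1 and 3, and RfA1 replicate 2 with GFP replicates 2 and 3, and the log2 fold change was -0.10 ± 0.0997 (SE, edgeR adjusted p = 0.632). ACLY had 185 ± 6.79 TPM in GFP and 195 ± 15.8 TPM in RfA1 cells (log2 fold change 0.0062). ACACA, the carboxylase that makes malonyl-CoA, had 22.4 ± 1.59 and 24.4 ± 3.76 TPM (log2 fold change 0.055). The desaturases of polyunsaturated fatty acids, FADS1 (30.3 ± 0.953 and 33.1 ± 3.33 TPM) and FADS2 (43.1 ± 2.64 and 45.8 ± 3.88 TPM), had log2 fold changes of 0.065 and 0.020.

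The sterol and the fatty acid branch were set against each other. The median log2 fold change was 0.067 over the 19 sterol genes, with 14 positive, and 0.055 over the 7 fatty acid genes, with 6 positive. With the GFP mean set to 0, the mean log2 CPM of the sterol branch was 0.0042, -0.028 and 0.024 for GFP replicates 1 to 3 and 0.095, 0.0045 and 0.054 for RfA1 replicates 1 to 3. For the fatty acid branch it was -0.017, -0.012 and 0.029 for GFP and 0.12, -0.0067 and 0.059 for RfA1. Both branches ordered the RfA1 libraries alike, with replicate 1 highest and replicate 2 within the range of the GFP libraries. The sterol minus fatty acid difference was -0.0047 ± 0.016 (SD, n = 3) in RfA1 cells, and its SD between GFP libraries was 0.019. Before the GC correction described below, the branches thus differed from each other by less than the spread between libraries, and no test was made of these means, whose genes were chosen with earlier results known. The difference of the medians was 0.012, and it was -0.029 without RfA1 replicate 2, 0.034 without RfA1 replicate 1 and 0.049 without RfA1 replicate 3.

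**Figure D3:**
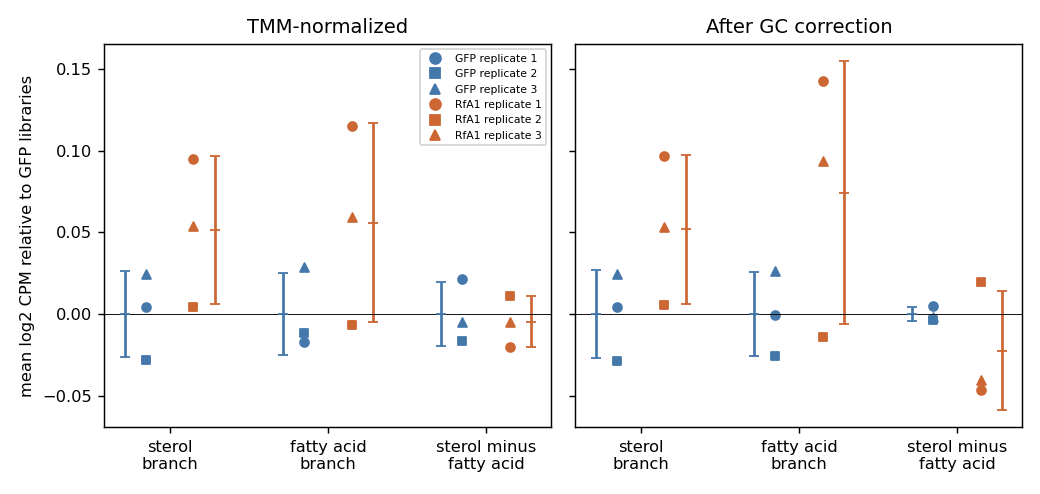
Mean log2 CPM of the sterol branch (19 genes), of the fatty acid branch (7 genes) and the difference of both, relative to the GFP libraries, before (left) and after (right) a correction for transcript GC content. Points are libraries and bars are mean ± SD (n = 3), and RfA1 replicate 2 lay within the GFP range for each branch in both panels. The difference between branches lay near 0 in both groups before correction. After correction it was 0.020 for RfA1 replicate 2, above all GFP libraries.

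Many of these values depended on RfA1 replicate 2. It lay outside the interval between RfA1 replicates 1 and 3 for 27 of 30 members and had the lowest RfA1 value for 20, among them all 7 members that were higher at an unadjusted p under 0.05. These positions were not counted over all genes, where RfA1 replicate 2 also stood apart by the chi-square values above (11.4 and 14.0). Without this library, which left 3 GFP and 2 RfA1 libraries, edgeR called 12 members at an adjusted p of 0.05, against 20.1% of the 13129 genes tested. INSIG1, HMGCS1, IDI1, SQLE, CYP51A1, MSMO1, SC5D, SCD and ELOVL6 were then higher, with log2 fold changes from 0.21 (SCD) to 0.53 (MSMO1). SCAP (-0.22), MVD (-0.44) and TM7SF2 (-0.44) were lower. Over all 13129 genes, 1124 were called higher and 1512 lower, against 9 and 3 of the 30 members. The members called lower were thus no larger a share than the genes called lower in the whole table. Values did not overlap between the groups for 13 members on the higher side (43.3% against 26.0% of all genes) and for 8 on the lower side (26.7% against 25.1%). The share of members on the lower side was thus close to that of all genes. Leaving out any one of the other libraries called 0 members, but hardly any gene of the whole table was called there either. Over all genes, 1 was called without GFP replicate 1, 0 without GFP replicate 2, 0 without GFP replicate 3 and 2 without RfA1 replicate 1. Without GFP replicate 1, 9 of the 30 members had an unadjusted p under 0.05, against 17.2% of all genes. There were 4 without GFP replicate 2 (against 6.55% of all genes) and 6 without GFP replicate 3 (against 7.45%). There were 4 without RfA1 replicate 1 (against 6.70%) and 6 without RfA1 replicate 3 (against 6.82%). The share of all genes thus moved with the library left out as well.

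The values of the members moved with the GC content of their transcripts. Transcript GC content (GENCODE release 29) had a median of 50.3% over the members, from 34.2% in STARD4 to 65.6% in MVD, and of 49.1% over all tested genes. Both branches had like medians, 50.2% for the sterol and 50.1% for the fatty acid branch. Across the 30 members, Pearson's r between log2 fold change and GC content was -0.851, and over 12917 tested genes it was -0.471. These describe genes of the same 6 libraries, which are not independent replicates. All 13 members with a GC content under 50% had positive values, against 72.1% of all genes in that range, and 7 of them were the higher ones named above. Of the 17 members with a GC content of at least 50%, 8 had positive values, against 25.2% of all genes there, and MVD and TM7SF2 were among the other 9. The median over all tested genes went from 0.12 at 36% to 40% GC to -0.20 at 64% to 68% GC. The SREBF1 and SCAP transcripts are GC-rich (64.7% and 62.3%), whereas INSIG1 has 46.0%.

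**Figure D4:**
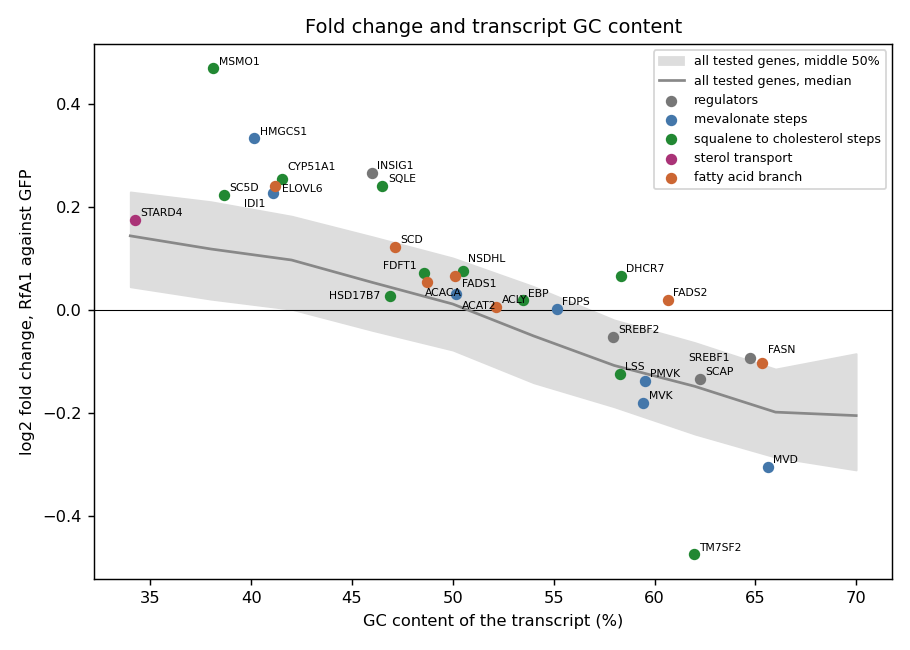
Log2 fold change of each member between RfA1 and GFP cells against the GC content of its transcript (percent), coloured by role, with the median and the middle 50% of all tested genes in GC intervals (grey). The members above the grey band included MSMO1, HMGCS1, INSIG1, SQLE, CYP51A1, ELOVL6, IDI1, DHCR7 and FADS2, and TM7SF2 and MVD lay below it.

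A correction of each library for this trend was applied to the whole table, and the members were compared again. After it, Pearson's r between log2 fold change and GC content was -0.0064 over all tested genes but -0.517 across the members. Of the members under 50% GC, 12 of 13 still had positive values, against 49.3% of all genes there. Of those with at least 50%, 12 of 17 had them, against 46.5%. A negative correlation with GC content thus remained among the members but not over all tested genes, and its cause was not tested. With the correction, edgeR called 1 member, against 1.47% of 12917 genes. That gene was MSMO1, with a log2 fold change of 0.35 ± 0.080 (SE, edgeR adjusted p = 0.0347 by Benjamini-Hochberg). The next smallest adjusted p of a member was 0.0708, for HMGCS1, and its log2 fold change was 0.22 ± 0.060 (SE). INSIG1 had 0.20 ± 0.062 (SE, edgeR adjusted p = 0.113) and TM7SF2 -0.33 ± 0.12 (SE, edgeR adjusted p = 0.183). At an unadjusted p under 0.05, 6 members were higher, against 8.15% of all genes, and 1 was lower, against 7.82%. The higher ones were INSIG1, HMGCS1, SQLE, CYP51A1, MSMO1 and DHCR7, and the lower one TM7SF2. DHCR7 went from 0.067 to 0.18 (edgeR adjusted p = 0.187) and FADS2 from 0.020 to 0.16. SREBF1 (0.084), SREBF2 (0.048), SCAP (0.014) and FASN (0.072) turned to positive values, and HSD17B7 turned to -0.024, none past the threshold. Positive values then made up 24 of the 30 members (80%), against 48.0% of all tested genes. They made up 13 of the 19 genes of the sterol branch and all 7 of the fatty acid branch. After the correction the sterol minus fatty acid difference of the means was -0.046, 0.020 and -0.040 for RfA1 replicates 1 to 3, or -0.022 ± 0.036 (SD, n = 3), and its SD between GFP libraries was 0.0044. RfA1 replicate 2 differed in sign from the other RfA1 libraries, and without it the mean was -0.043. The difference of the medians was -0.022.

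**Figure D5:**
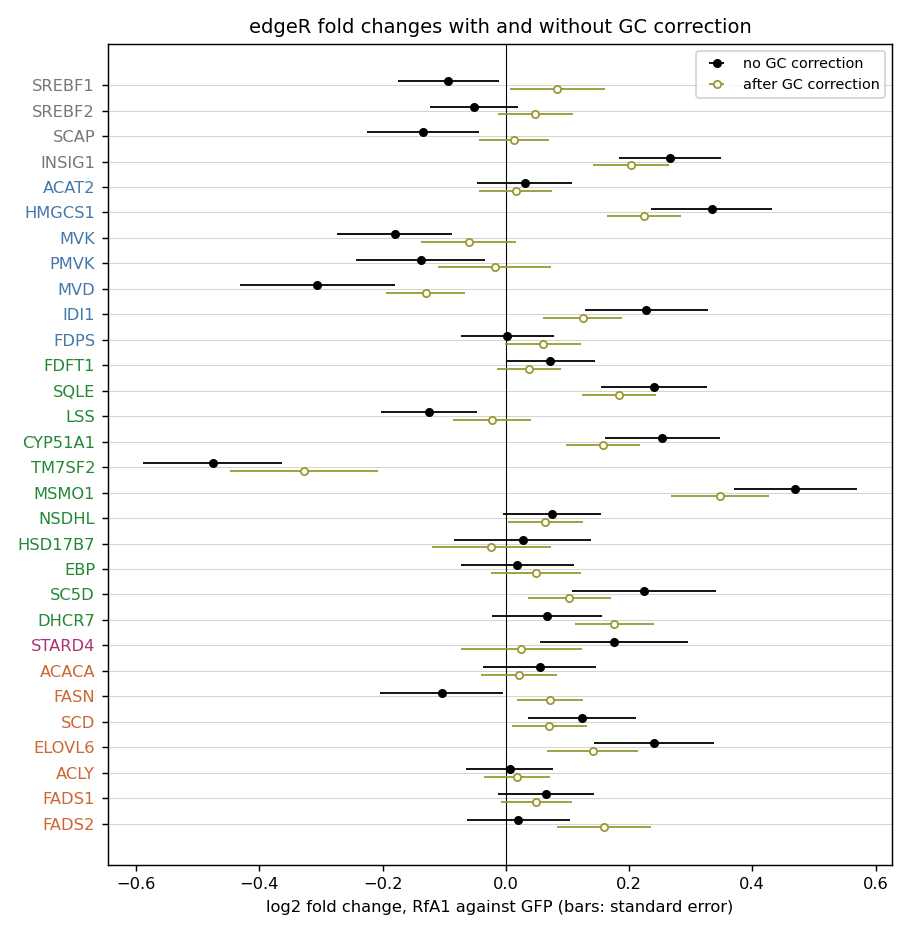
Log2 fold change of each of the 30 genes with its standard error from edgeR, before (black) and after (open) the GC correction, with names coloured by role. MSMO1 went from 0.47 to 0.35 and TM7SF2 from -0.48 to -0.33, while SREBF1, SREBF2, SCAP and FASN crossed 0.

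Other genes of the pathways, 55 in a list chosen with earlier results of these data known, were counted in the same fit. Of them 53 were tested, 0 were called, and at an unadjusted p under 0.05 there were 6 higher (11.3% against 7.3% of all tested genes) and 3 lower (5.66% against 6.64%). Their median log2 fold change was 0.081, and 0.037 after the GC correction. In SREBP processing and sterol sensing, 8 of 9 genes had positive values, against 49.5% of all tested genes, and 5 of 9 after the GC correction, against 48.0%. INSIG2, the paralog of INSIG1, was at 9.54, 8.47 and 8.92 CPM in GFP cells and at 12.9, 11.9 and 14.7 CPM in RfA1 cells. The groups did not overlap, with a log2 fold change of 0.55 ± 0.13 (SE, edgeR adjusted p = 0.179), and of 0.42 after the GC correction (edgeR adjusted p = 0.0595). RNF139, a ubiquitin ligase of the endoplasmic reticulum, had a log2 fold change of 0.20 (edgeR adjusted p = 0.373), and of 0.13 after the GC correction.

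Among other sterol enzymes and sterol transport, NR1H3, which encodes the oxysterol receptor LXR alpha, was at 19.6, 15.4 and 17.1 TPM in GFP cells and at 11.1, 12.9 and 10.4 TPM in RfA1 cells. The highest RfA1 library was below the lowest GFP library. The log2 fold change was -0.69 ± 0.14 (SE, edgeR adjusted p = 0.166), and with the GC correction it was -0.64 and passed (edgeR adjusted p = 0.0111). STARD3, which tethers late endosomes and transfers cholesterol, had -0.28 (edgeR adjusted p = 0.259), and -0.15 after the GC correction. Of the isoprenoid and dolichol branch, NUS1, a subunit of the enzyme that makes dolichol, had a log2 fold change of 0.24 (edgeR adjusted p = 0.339). PDSS1, a synthase of the coenzyme Q side chain, had -0.16 (edgeR adjusted p = 0.427). After the GC correction NUS1 had 0.12 and PDSS1 -0.23. Of other fatty acid and glycerolipid genes, ME1, which supplies NADPH, had 0.30 (edgeR adjusted p = 0.262) and the elongase ELOVL5 0.27 (edgeR adjusted p = 0.306). After the GC correction ME1 had 0.18 and ELOVL5 0.17.

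Some members share sequence with other annotated genes, which the counting could split. In GENCODE release 29, 15 of the 30 genes share exonic bases with another gene, and 2 share over 20% of them. ACAT2 overlaps SOD2-OT1 (33.9% of its exonic bases), SOD2 (26.5%) and TCP1 (9.23%), all on the opposite strand. CYP51A1 shares 79.4% of its exonic bases with AC000120.2 on the same strand. SOD2 and TCP1 are in the table used, whereas SOD2-OT1 and AC000120.2 are not, so splitting of counts with these is not shown. Named pseudogenes exist for FDPS (8), CYP51A1 (3), HSD17B7 (2), SCD (1) and FADS2 (1), and the values of these genes are less certain for that reason. Whether the counting used strand is not given in the sources used here.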

How the data were processed

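The authors sequenced 6 libraries and deposited a table of 16655 genes with estimated counts, TPM and FPKM for each library. The submitters' processing notes name HISAT and GRCh38.p13. The counting tool, annotation and strand setting are not given in the sources used here. The deposited estimated counts carry no normalization, and 7.39% to 8.02% of them in a library are not whole. They were rounded. The deposited TPM were used for levels and for limma-trend. The FPKM and the averages of replicates were not used here. Groups and replicate numbers came from the labels.

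In R 4.3.3, genes were kept by filterByExpr (minimum count 10, minimum total 15), normalized by TMM and compared by the two-sided quasi-likelihood test of edgeR 4.0.16 (robust fit), with p adjusted by Benjamini-Hochberg over 13002 genes and called under 0.05. The biological coefficient of variation was 8.83%. Alternatives were DESeq2 1.42.0, upper-quartile normalization, total library size, other filters, the replicate number as a block, limma 3.58.1 (limma-trend on log2(TPM + 1)), a GC correction (spline with 5 degrees of freedom per library as an offset, 1 transcript per gene, 98.3% of genes matched) and each library left out. The non-overlap without RfA1 replicate 2 was added after the data were seen. Scripts were tested on simulated data. Members, lists and tests were chosen with earlier results of these data known. All members are named, with every library's values for the 4 regulators, STARD4 and each group's 3 smallest p. Of the other pathway genes, LBR and the 2 smallest p in each list are named, with every library's values for INSIG2 and NR1H3 only. CH25H was not in the table used and ABCG1 had low counts, and TTR and FABP4 were not in the table used.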

Additional observations from a re-analysis of the deposited data

How the results depend on the processing

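The number of all genes past the threshold was 10, and it was 33 with DESeq2, 6 with upper-quartile normalization (4 higher and 2 lower), 20 without a filter on low counts (12 and 8), 4 with limma-trend on log2(TPM + 1), 190 with the GC correction (124 and 66), 399 with the GC correction and the replicate block, 1812 at an unadjusted p under 0.05, and 0 to 2636 with 1 library left out, the highest without RfA1 replicate 2. DESeq2 split its calls into 17 higher and 16 lower, against 8 and 2. Members past it numbered 0, but 1 with the GC correction, 3 with the GC correction and the replicate block, 9 at an unadjusted p, and 0 to 12 with 1 library left out. With the replicate block 625 genes (309 higher and 316 lower) and 5 members passed, namely INSIG1, HMGCS1 and MSMO1 higher and MVD and TM7SF2 lower. The labels give the groups the same numbers but name no shared batch or day, and the deviations of same-numbered libraries correlated at 0.166, 0.321 and -0.143, so that the numbers were not taken to pair the libraries. The median of the fatty acid branch was 0.11 with limma-trend and ran from 0.018 to 0.11 with 1 library left out. The sterol minus fatty acid difference was -0.021 with limma-trend, -0.022 with the GC correction, -0.018 with the correction and the replicate block, and -0.029 to 0.049 with 1 library left out.

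The sign turned for FDPS with DESeq2 (-0.0017), upper-quartile normalization (-0.0031) and at least 10 counts in every library (-0.0024), and for SREBF2 with limma-trend (0.010). With the GC correction it turned for SREBF1 (0.084), SREBF2 (0.048), SCAP (0.014), HSD17B7 (-0.024) and FASN (0.072), and with the correction and the replicate block these were 0.081, 0.046, 0.014, -0.026 and 0.071. With 1 library left out, values ran from -0.015 to 0.13 for DHCR7, -0.041 to 0.062 for FADS2, -0.037 to 0.072 for EBP, -0.030 to 0.035 for FDPS, -0.028 to 0.10 for HSD17B7, -0.019 to 0.030 for ACLY and -0.0069 to 0.057 for ACAT2. The cause was not tested. The sign held for 19 of the 30 members in all 15 alternatives, and these include the 9 with an unadjusted p under 0.05. The alternatives refit the same libraries from which these 9 were picked, so that their signs are no independent support.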
